A study of Mus musculus with 24 samples.

Results

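Enzymes that add or remove methyl and acetyl groups on histones were followed by RNA sequencing through the first wave of spermatogenesis in mouse testes with and without *Atad2*. They were taken by symbol, as all genes whose name starts with Kdm, Kat, Hdac, Sirt, Setd, Setdb, Ehmt, Suv39h, Suv420h or Kmt followed by a digit. This gave 65 of the 24456 genes in the count tables, and all 65 were among the 17170 genes that passed the filter on low counts. By their best known substrate they were 19 methyltransferases of histone H3 or H4, 18 demethylases, 7 acetyltransferases, 11 zinc-dependent deacetylases, 7 sirtuins and 3 other SET domain proteins.

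Testes of wild-type (WT) mice and of mice homozygous for an *Atad2* knockout (KO) were taken at 4 ages between day 20 and day 26 postpartum (PP), 2 days apart. *Atad2* encodes a bromodomain AAA+ ATPase that is abundant in the male germline. Each genotype had 4 libraries at day 20 and at day 22 and 2 libraries at day 24 and at day 26, which makes 24 libraries. The KO allele carries a lacZ cassette and lacks exon 12, removed with a Cre recombinase under a CMV promoter. The first 11 exons remain and are joined to beta-galactosidase, so transcripts of this part of the gene are still made. The neomycin cassette had been removed, the deletion is in every tissue, and WT mice carry none of these elements. The study's methods call the samples biological replicates, while the labels only number them, so p-values measure the spread between these libraries. The label of the tissue is testis, and although the extraction text of the labels also speaks of separated germ cell fractions, markers of Sertoli, Leydig and peritubular cells were found in every library beside those of germ cells. In such bulk RNA, fewer cells of a type and less RNA per cell cannot be told apart.

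As background, methyltransferases write marks on histone lysines that are read in opposite senses. Methylation of H3K4 and H3K36 goes with active genes, while methylation of H3K9, H3K27 and H4K20 goes with silent chromatin, and demethylases of the KDM family erase these marks. Acetyltransferases open chromatin, and deacetylases and sirtuins reverse that. During male meiosis the X and Y chromosomes are silenced as a pair, and in late spermatids most histones are hyperacetylated and then replaced by transition proteins and protamines. Not every member acts on histones in the main. Setd3 methylates actin, Hdac6 deacetylates tubulin, Hdac10 acts on polyamines, and Sirt3, Sirt4 and Sirt5 are mitochondrial. Kmt2e and Setd5 are placed by their SET domain, and whether they methylate histones is disputed.

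The libraries held 10709667 to 19491935 counts assigned to genes, of which the 65 enzymes took 0.589% to 0.83%. Replicate 2 of the WT day 20 group stood apart from the other 3 libraries of its group. For 58 of the 65 enzymes it lay outside the range of the other 3, below it for 41 and above it for 17. The other libraries of groups of 4 lay outside the rest of their group for 10 to 50 of the 65. The 50 belonged to KO day 22 replicate 4. The median absolute difference of WT day 20 replicate 2 was 0.53 on the log2 scale, against 0.075 to 0.26 for the other libraries of groups of 4. Across the 65 enzymes its difference went down with the G+C content of the exons (Pearson r = -0.783 over 65 genes of 1 library comparison, a description). It also had the highest share of mitochondrial ribosomal RNA, 3.26% against at most 1.06% elsewhere. Calls of enzymes that change without this library are named beside the counts with age. Of 4 markers of the epididymis (Crisp1, Adam7, Lcn5 and Defb20), 2 passed the filter on low counts. These 2 summed to more than 10 CPM (TMM-scaled counts-per-million) in 9 libraries, up to 684.6 CPM in WT day 24 replicate 2. The affected libraries belonged to both genotypes and all 4 days. Their part in the results was measured by leaving those 9 libraries out, an alternative chosen after the data were seen.

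**Figure D1:**
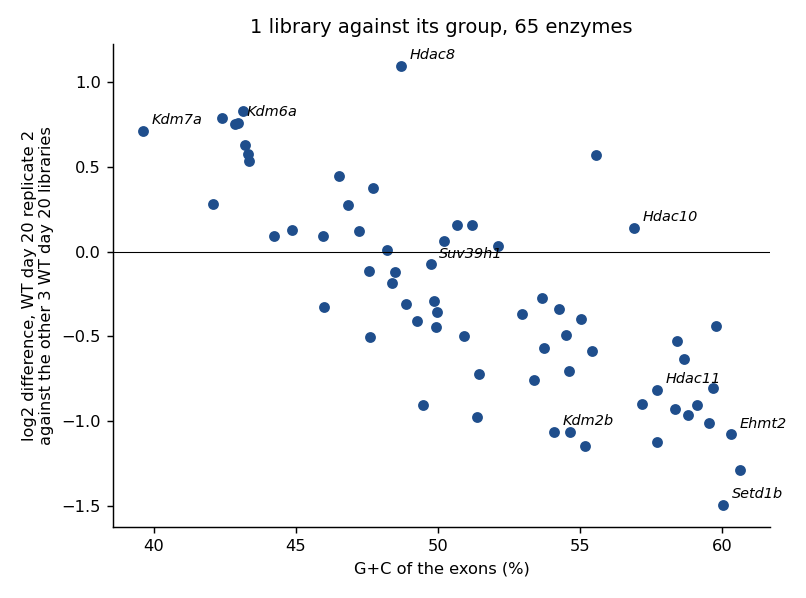
Difference of WT day 20 replicate 2 from the mean of the other 3 WT day 20 libraries (log2, vertical axis) against the G+C content of each gene's exons (percent, horizontal axis), 1 point for each of the 65 enzymes. Enzymes rich in G+C such as *Ehmt2*, *Kdm2b* and *Setd1b* lie near or below -1, and those poor in G+C such as *Kdm6a* and *Kdm7a* lie above 0.

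The enzymes differed widely in level in WT testis. Per kilobase of exon and averaged over the 4 days, the H4 and H3 acetyltransferase *Kat7* was the highest at 97.5 CPM per kb, followed by the H3K9 demethylase *Kdm3a* at 86.2, the class I deacetylase *Hdac1* at 70.6 and the H3K4 demethylase *Kdm5b* at 60.8. The lowest were the mitochondrial *Sirt5* at 0.959 CPM per kb, the class IIa deacetylase *Hdac9* at 1.06, the class I deacetylase *Hdac8* at 1.13 and *Hdac10* at 1.305. The median of the 65 was 13.0 CPM per kb.

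Among H3K9 methyltransferases, *Ehmt2* (43.6 CPM per kb) and *Setdb1* (26.97) were the highest and the 2 heterochromatin enzymes *Suv39h2* (6.35) and *Suv39h1* (4.66) the lowest. Among H3K4 methyltransferases, levels lay closer together, from *Kmt2e* (26.5) and *Kmt2d* (21.6) at the top to *Kmt2a* (8.58) and *Setd7* (4.21) at the bottom. The H3K36 methyltransferases *Setd2* and *Setd5* were at 42.2 and 28.99 CPM per kb, and the H4K20 methyltransferases ran from *Setd8* (15.02), which places the first methyl group, through *Suv420h1* (6.99) to *Suv420h2* (6.37).

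Among the erasers, members also differed. *Kdm5b* stood above the other H3K4 demethylases, of which *Kdm1a* was next (33.1 CPM per kb) and *Kdm1b* (4.67) and the Y-linked *Kdm5d* (2.33) were the lowest. For H3K9, *Kdm3a* and *Kdm4d* (36.2) were the highest and *Kdm4b* (9.18) and *Kdm4a* (9.04) the lowest. The H3K27 demethylases *Kdm6b* and *Kdm6a* were at 11.5 and 6.49 CPM per kb, and the H3K36 demethylases *Kdm2a*, *Kdm2b* and *Kdm8* at 19.5, 9.96 and 1.98. Below *Kat7*, acetyltransferases ran from *Kat5* (40.05) to *Kat2b* (13.1) and *Kat6b* (9.93).

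Class I deacetylases are the catalytic core of corepressor complexes such as Sin3 and NuRD. Apart from *Hdac8*, they had more RNA per kb than each class IIa enzyme. *Hdac3* stood at 34.2 and *Hdac2* at 23.1 CPM per kb, whereas in class IIa *Hdac5* had 5.65, *Hdac4* 3.11 and *Hdac7* 2.85. In class IIb *Hdac6* had 22.7 CPM per kb, and the class IV enzyme *Hdac11* had 5.50. The sirtuins ran from *Sirt2* (31.2) and *Sirt1* (20.3) down to *Sirt6* (2.42) and *Sirt5*, and the other SET domain proteins from *Setd3* (32.2) and *Setd6* (3.14) to *Setd4* (1.79).

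**Figure D2:**
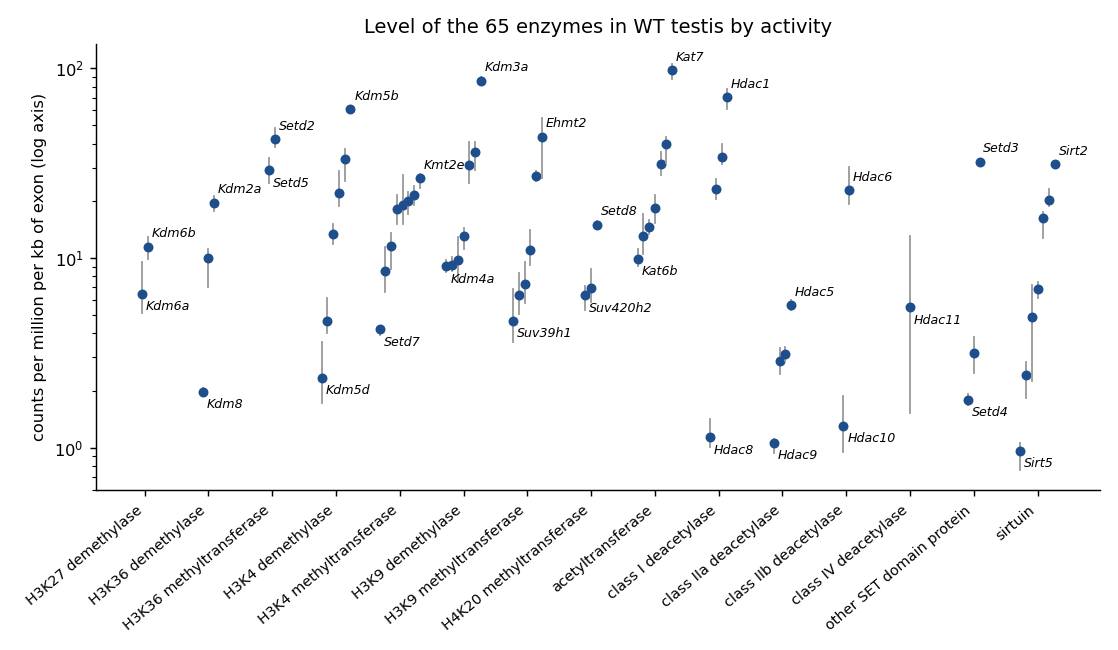
Level of the 65 enzymes in WT testis (CPM per kb of exon, log axis) by activity. Points are the mean of the 4 day means and bars run from the lowest to the highest day mean, with the highest and lowest member of each activity named. The longest bar belongs to *Hdac11*.

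The first comparison asked how the enzymes changed with age, from day 20 to day 26 PP, the window in which the first round spermatids appear and begin to elongate. In WT, 32 of the 65 enzymes changed, 11 upward and 21 downward (edgeR quasi-likelihood test, Benjamini-Hochberg adjusted p below 0.05 over 17170 genes). Of all genes tested 42.5% changed, 24.4% upward and 18.1% downward. The total share of enzymes that moved lies near that of all genes, but the enzymes moved more often downward and less often upward. The median log2 change was -0.24 for the enzymes and -0.044 for all genes tested. Only 4 enzymes moved by at least 1 on the log2 scale, *Hdac11*, *Sirt4* and *Ehmt2* upward and *Kdm5d* downward. A test for any difference among the 4 days in WT called 22 of the enzymes, against 35.4% of all genes.

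In KO, 33 of 65 changed between the same days, 12 upward and 21 downward, where 52.2% of all genes changed, 27.2% upward and 24.9% downward. Of the members called, 25 were called in both genotypes, all with the same sign, 7 in WT alone and 8 in KO alone. The matching shares over all genes were not counted. No enzyme differed between the genotypes in its change with age (0 of 65, with 0% of all genes tested). An unadjusted p below 0.05 was found for 2 enzymes and for 1857 of all 17170 genes, and DESeq2 called 0 enzymes.

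The age contrast goes with a change in the cells of the testis. Summed over 7 genes of elongating spermatids, the level was 1.90 to 7.99 CPM in WT day 20 and 1859 to 2963 CPM in WT day 26. Over 8 round spermatid genes it went from 106 to 179 CPM up to 695.8 to 788.9 CPM. Over 7 Sertoli cell genes it went from 391 to 485 CPM down to 259 to 269 CPM. Over 6 early meiotic genes it went from 920.5 to 1706 CPM to 776.8 to 868.1 CPM, where the 1706 is WT day 20 replicate 2. The mean of their log2 levels, centred on all libraries, overlapped (-0.17 to 0.24 on day 20 and -0.08 to 0.05 on day 26). The summed level of 6 Leydig cell genes went up, from 260.2 to 376 CPM to 1095 to 1805 CPM. Age and cell make-up cannot be told apart here. With a germ cell stage score (round spermatid minus pachytene genes) as a covariate, 0 of the 65 were called in WT and 11 in KO, as were 6 and 2774 of all genes.

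The counts depended on single libraries. Without WT day 20 replicate 2, 37 were called in WT, 8 upward and 29 downward, of which 28 were among the 32. *Hdac1*, *Kdm4d*, *Setdb2* and *Sirt3* lost their calls. The 9 gained, all downward, were *Kmt2b*, *Kmt2d*, *Kmt2e*, *Setd1a*, *Suv420h2* (log2 -0.56), *Kdm2a* (-0.40), *Kdm4b* (-0.43), *Hdac4* (-0.49) and *Sirt6* (-0.78). Among the named falls *Kdm6a* became -0.71, *Kdm7a* -0.55 and *Kdm5a* -0.46. Leaving out the same library, which is fitted together with the KO groups, moved the KO count to 39, with *Hdac8*, *Kat6b*, *Setd2*, *Setd8*, *Sirt2* and *Sirt6* gained and 33 shared. Without WT day 26 replicate 1 or replicate 2 the WT count was 20 or 19. The shares of all genes called in these fits are not given here, so the counts cannot be set against them. In every fit that left out 1 of the 24 libraries, the same 16 enzymes were called in WT, 6 upward (*Hdac11*, *Sirt4*, *Ehmt2*, *Suv39h2*, *Kat2b* and *Kdm1a*) and 10 downward (*Suv39h1*, *Ehmt1*, *Kmt2a*, *Kmt2c*, *Suv420h1*, *Kdm1b*, *Kdm4c*, *Kdm6a*, *Hdac6* and *Hdac10*). Each of the other 16 lost its call without WT day 26 replicate 1 or replicate 2, among them *Kdm5d* (adjusted p = 0.0581 without replicate 2), *Kdm2b* (0.0727 without replicate 2) and *Kdm4d* (0.226 without replicate 2). In KO, 20 were called in every such fit, and each of the others lost its call without KO day 26 replicate 1 or replicate 2, *Suv39h1* (0.0794) and *Kdm6a* (0.0526) without replicate 2. Without the 9 libraries with epididymis markers, which left 1 library of each genotype on day 26, 8 were called in WT, all among the 32 (*Hdac11*, *Sirt4*, *Ehmt2*, *Ehmt1*, *Suv39h1*, *Suv420h1*, *Kmt2c* and *Kdm4c*), and 6 in KO, as were 2818 and 3020 of 17102 genes. The lone day 26 library of each genotype is assumed there to vary like the other groups.

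**Figure D3:**
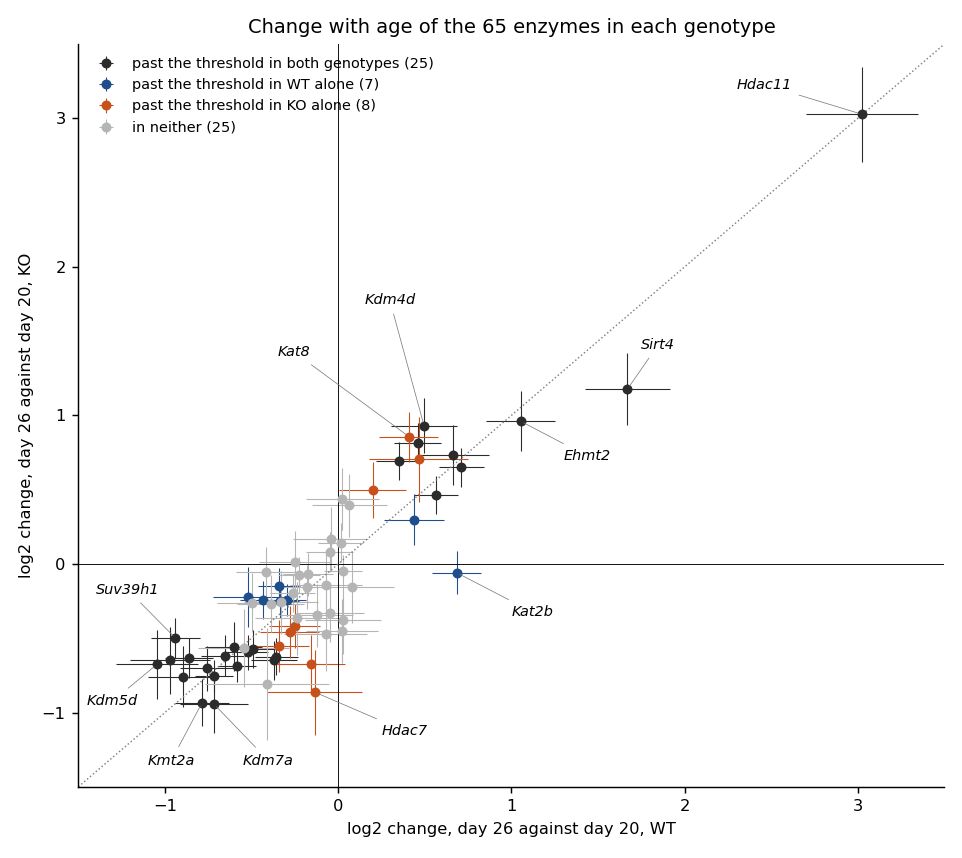
Log2 change from day 20 to day 26 in WT (horizontal axis) and KO (vertical axis) for the 65 enzymes, with standard errors, coloured by where the change passed the adjusted threshold. Points lie along the dotted line of equal change, with *Hdac11* at the far upper right, and *Kat2b* lies on the right near 0 in KO.

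*Hdac11*, the only class IV deacetylase, which also removes fatty acyl groups, made the largest change. In WT it was at 3.30, 2.42, 5.90 and 5.11 CPM on day 20, 3.10, 4.01, 5.07 and 4.04 on day 22, 15.1 and 15.7 on day 24 and 36.9 and 32.5 on day 26. In KO it was at 4.28, 4.18, 5.55 and 6.10, then 6.17, 14.01, 8.11 and 4.22, then 25.6 and 20.01, and 42.8 and 39.4 CPM. Within each genotype all libraries of days 24 and 26 lay above all those of days 20 and 22, and day 26 lay above day 24. The change was 8.13-fold in WT (log2 3.02 ± 0.32 SE, edgeR adjusted p = 3.00e-07) and 8.15-fold in KO (log2 3.03 ± 0.32, adjusted p = 6.95e-07), and 2.80 on the log2 scale in WT without WT day 20 replicate 2.

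The promoter of *Hdac11* is shown because it belongs to the enzyme with the largest change. The gene lies on the plus strand of chromosome 6. In GENCODE's mm10 annotation it spans 91156665 to 91174692. This start lies inside the window printed, before the capitals, because the window was set from a different, RefSeq start. The window printed (RefSeq, GRCm38.p6, chr6:91156565-91156864, plus strand, 250 bases before the start to 50 after it) holds 22 CpG, and capitals mark TGACG, the first 5 bases of the cAMP response element, TGACGTCA, the element to which CREM, a master factor of spermatid genes, binds.
Hdac11: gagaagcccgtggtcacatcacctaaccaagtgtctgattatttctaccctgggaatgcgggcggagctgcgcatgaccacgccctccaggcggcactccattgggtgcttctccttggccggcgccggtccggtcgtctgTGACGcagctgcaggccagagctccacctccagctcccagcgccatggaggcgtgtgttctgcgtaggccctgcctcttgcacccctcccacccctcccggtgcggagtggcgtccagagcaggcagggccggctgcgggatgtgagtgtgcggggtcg

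Windows of this kind were found for 53 of the 65 enzymes, 75 windows in all. TGACG on either strand was in 29.3% of the 75 and in 20.8% of all 32851 mouse windows, and the whole TGACGTCA in 1.33% and 1.79%. The GC box GGGCGG was in 64.0% of the enzymes' windows against 35.7% of all, and TATAAA in 4.0% against 13.6%. The median window held 22 CpG for the enzymes and 7 for all genes. These are letter matches and say nothing of binding.

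Of the sirtuins, the NAD-dependent deacylases, 2 of 7 rose in WT, where 24.4% of all genes rose. *Sirt4*, a mitochondrial enzyme, went from 5.27, 2.84, 5.14 and 5.04 CPM on day 20 to 11.3, 6.52, 9.38 and 10.5 on day 22, 11.98 and 10.2 on day 24 and 14.4 and 15.1 on day 26. Every WT library of days 22 to 26 lay above every WT library of day 20, and replicate 2 was the lowest of day 20. The change was log2 1.67 ± 0.24 in WT (adjusted p = 1.08e-05) and 1.18 ± 0.24 in KO (adjusted p = 4.84e-04), where the day means went from 5.81 ± 1.62 (SD, n = 4) to 13.1 ± 1.72 CPM (n = 2). *Sirt3*, also mitochondrial, rose by log2 0.44 ± 0.17 in WT (adjusted p = 0.0453), with a value of 0.27 and an adjusted p of 0.142 without WT day 20 replicate 2. In KO *Sirt1* fell by 0.46 and *Sirt3* was not called.

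H3K9 methyltransferases moved in opposite directions. *Ehmt2* (G9a) and *Ehmt1* (GLP) work as a pair that dimethylates H3K9 in euchromatin, and *Ehmt2* rose while *Ehmt1* fell. *Ehmt2* was at 122, 58.9, 129 and 124 CPM in the WT day 20 libraries, 173, 146, 184 and 189 on day 22, 215 and 207 on day 24 and 229 and 221 on day 26. The lowest day 20 value is replicate 2, and day 26 lay above all earlier WT libraries. The change in WT was log2 1.05 ± 0.20 (adjusted p = 2.42e-04), and 0.81 without that replicate, and in KO it was 0.96 ± 0.20 (adjusted p = 5.52e-04). *Ehmt1* went from 55.2, 58.02, 55.8 and 59.2 CPM on WT day 20 to 35.6 and 33.7 on day 26, with no overlap, a change of -0.72 ± 0.11 in WT (adjusted p = 1.81e-05) and -0.76 ± 0.11 in KO (adjusted p = 1.61e-05).

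The paralogs *Suv39h1* and *Suv39h2*, which trimethylate H3K9 in pericentromeric heterochromatin, also went apart. X-linked *Suv39h1* was at 33.01, 32.96, 36.01 and 35.3 CPM on WT day 20, 21.4, 20.2, 24.6 and 21.8 on day 22, 17.4 and 19.4 on day 24 and 17.4 and 18.4 on day 26. Autosomal *Suv39h2*, whose product is most abundant in the testis, was at 21.7, 25.4, 18.8 and 22.1, then 21.5, 21.2, 25.2 and 21.9, then 33.6 and 25.4, and 33.9 and 37.95 CPM. All WT day 20 libraries had more *Suv39h1* than *Suv39h2* counts, and all WT day 26 libraries fewer, with exons of 4.97 and 4.33 kb.

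*Suv39h1* fell by 0.94 on the log2 scale in WT (SE 0.14, adjusted p = 1.35e-05) and by 0.50 in KO (SE 0.14, adjusted p = 0.00475). *Suv39h2* rose by 0.71 ± 0.13 in WT (adjusted p = 1.56e-04) and 0.65 ± 0.13 in KO (adjusted p = 3.61e-04). Of the other 2 H3K9 methyltransferases, *Setdb2* fell in WT (log2 -0.52 ± 0.20, adjusted p = 0.0441, and 0.0791 without WT day 20 replicate 2). That replicate had 80.7 CPM of *Setdb2*, the other WT day 20 libraries 43.2 to 49.1 and WT day 26 35.8 and 40.9. *Setdb1*, which silences retroelements, was at -0.17 ± 0.14.

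The promoters of this pair are shown since the genes are paralogs with opposite changes. *Suv39h2* is on the minus strand of chromosome 2 (window chr2:3474937-3475236) and *Suv39h1* on the minus strand of the X (window chrX:8074711-8075010), both read on their own strand from the same RefSeq table. Capitals mark TGACG or TGACGTCA on either strand. *Suv39h2* was the single enzyme of the 53 with the whole 8 bases. *Suv39h1* has 2 TGACG in this window and 0 in a window downstream of it, which is not printed.
Suv39h2: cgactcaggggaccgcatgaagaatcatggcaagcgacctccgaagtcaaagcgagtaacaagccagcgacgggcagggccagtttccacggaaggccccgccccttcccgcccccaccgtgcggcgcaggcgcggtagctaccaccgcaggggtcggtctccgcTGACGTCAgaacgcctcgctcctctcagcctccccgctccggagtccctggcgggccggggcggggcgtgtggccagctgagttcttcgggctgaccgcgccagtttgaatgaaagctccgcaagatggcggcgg
Suv39h1: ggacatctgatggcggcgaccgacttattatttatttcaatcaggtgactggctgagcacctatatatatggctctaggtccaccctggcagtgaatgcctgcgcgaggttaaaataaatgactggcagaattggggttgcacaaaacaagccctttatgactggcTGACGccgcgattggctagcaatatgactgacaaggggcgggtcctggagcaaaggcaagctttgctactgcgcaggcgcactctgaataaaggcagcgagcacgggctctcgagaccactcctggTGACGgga

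Of 8 H3K4 methyltransferases, 2 fell in WT, where 18.1% of all genes fell, and none rose. *Kmt2c*, which with *Kmt2d* writes H3K4 monomethylation at enhancers, was at 419, 469.9, 343 and 409 CPM on WT day 20, 252, 254, 277 and 286 on day 22, 214 and 246 on day 24 and 219.7 and 232 on day 26. The 4 day 20 libraries were above all the later ones. The change was -0.86 ± 0.14 in WT (adjusted p = 3.37e-05) and -0.63 ± 0.14 in KO (adjusted p = 6.95e-04). *Kmt2a*, the MLL protein that keeps Hox genes on, changed by -0.79 ± 0.16 in WT (adjusted p = 3.57e-04) and -0.93 ± 0.16 in KO (adjusted p = 6.66e-05), from 188 ± 30.4 CPM (SD, n = 4) to 109 ± 3.52 (n = 2) in WT. Of the other 6, *Setd1b* rose and *Setd7* fell in KO (0.70 ± 0.28, adjusted p = 0.043, and -0.68 ± 0.20, adjusted p = 0.00824). Without WT day 20 replicate 2, *Kmt2b*, *Kmt2d*, *Kmt2e* and *Setd1a* also passed downward, at log2 -0.73, -0.56, -0.34 and -0.61.

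Both H3K36 enzymes fell in WT, *Setd2* by 0.34 and *Setd5* by 0.43 on the log2 scale, and neither was called in KO. *Suv420h1*, which adds further methyl groups to H4K20, fell by 0.58 in WT (adjusted p = 1.98e-04) and by 0.68 in KO (adjusted p = 4.27e-05). *Setd8*, *Suv420h2* and the 3 other SET domain proteins were called in neither genotype, but without WT day 20 replicate 2 *Suv420h2* fell in WT (adjusted p = 0.00702) and *Setd8* in KO (adjusted p = 0.0283). *Setd3* had a WT interval of -0.20 to 0.25.

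H3K4 demethylases fell in 4 of 6 cases in each genotype, where 18.1% of all genes fell in WT and 24.9% in KO. *Kdm5a*, *Kdm5c* and *Kdm5d* of the KDM5 family fell, while *Kdm5b*, which is by far the most abundant of them, had a WT change of -0.049 ± 0.14 with an interval of -0.33 to 0.23. *Kdm1a* (LSD1), a flavin enzyme of the CoREST complex, rose from 77.8 ± 7.64 to 115 ± 9.74 CPM in WT, by 0.56 ± 0.13 (adjusted p = 0.0012) and by 0.46 ± 0.13 in KO. Its relative *Kdm1b* (LSD2) went the other way, by -0.52 ± 0.12 in WT (adjusted p = 0.00142) and -0.60 ± 0.12 in KO.

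Among H3K9 demethylases, *Kdm4d* rose and *Kdm4c* fell. *Kdm4d*, a short JmjC protein known for its testis expression, was at 107, 51.7, 69.3 and 84.95 CPM on WT day 20 and 104 and 117 on WT day 26, so that the groups overlap. In KO it went from 97.7, 91.02, 80.97 and 76.4 to 161 and 169 CPM with a gap between the groups. The change was 0.50 ± 0.19 in WT (adjusted p = 0.0388; 0.30 with an adjusted p of 0.108 without WT day 20 replicate 2) and 0.93 ± 0.19 in KO (adjusted p = 3.56e-04). *Kdm4c* changed by -0.76 ± 0.15 in WT (adjusted p = 3.91e-04) and -0.70 ± 0.15 in KO. *Kdm7a* (log2 -0.72 in WT and -0.94 in KO) and *Kdm3b* (-0.37 and -0.65) also fell in both, while *Kdm3a*, needed for spermatid elongation, had 0.013 ± 0.13 in WT with an interval of -0.26 to 0.29. *Kdm2b*, an H3K36 demethylase that recruits Polycomb to CpG islands, rose by 0.67 ± 0.20 in WT (adjusted p = 0.0119; 0.42 without WT day 20 replicate 2) and 0.74 ± 0.20 in KO.

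Acetyltransferases went both ways. *Kat2b* (PCAF) was at 38.6, 61.9, 47.3 and 50.9 CPM on WT day 20, 46.9, 51.3, 50.9 and 46.7 on day 22, 68.8 and 61.9 on day 24 and 79.7 and 79.8 on day 26. In KO it was at 55.3, 53.6, 60.5 and 63.9, then 61.4, 56.99, 60.1 and 46.7, then 57.5 and 61.4, and 55.5 and 56.5 CPM. Day 26 exceeded all other days in WT, and in KO the days overlapped. The change was 0.68 ± 0.14 in WT (adjusted p = 4.91e-04) and -0.059 ± 0.14 in KO (adjusted p = 0.748), and their difference, KO minus WT, was -0.74 ± 0.20 (adjusted p = 0.175). *Kat5* (Tip60), needed for H4 acetylation in spermatids, rose by 0.46 ± 0.14 in WT and 0.82 ± 0.13 in KO, and *Kat6a* (MOZ) fell by 0.49 and 0.57. *Kat8* (MOF), which acetylates H4K16, was called in KO, at 0.86 ± 0.17, and not in WT, at 0.41 ± 0.17 (adjusted p = 0.0587). In WT it passed with DESeq2, with DESeq2's size factors, with no filter on low counts and without WT day 20 replicate 1, KO day 20 replicate 1 or KO day 22 replicate 2.

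Zinc-dependent deacetylases other than *Hdac11* changed less. In class I *Hdac1* rose in WT (0.35 ± 0.13, adjusted p = 0.0342; 0.23 with an adjusted p of 0.12 without WT day 20 replicate 2) and KO (0.69 ± 0.13), and *Hdac3* fell in WT (-0.34 ± 0.12, adjusted p = 0.0262). *Hdac2*, the close paralog of *Hdac1*, was at -0.34 ± 0.18 in WT, not called, and fell by 0.55 in KO. WT day 20 replicate 2 had 158.4 CPM of *Hdac2*, the other WT day 20 libraries 92.8 to 94.8 and WT day 26 84.6 and 88.5. In WT *Hdac2* was called with a replicate block and without WT day 20 replicate 1. None of the 4 class IIa enzymes was called in WT, although *Hdac4* was at -0.49 (adjusted p = 0.00375) without WT day 20 replicate 2. In KO *Hdac7* fell by 0.86 (SE 0.29, adjusted p = 0.016; 0.142 without KO day 26 replicate 1). Both class IIb enzymes fell in both genotypes, *Hdac6* by 0.65 in WT and 0.62 in KO, and *Hdac10* by 0.97 and 0.65. *Hdac10* had only 3.93, 5.05, 4.74 and 5.04 CPM on WT day 20 and 2.61 and 2.15 on WT day 26, with no overlap.

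**Figure D4:**
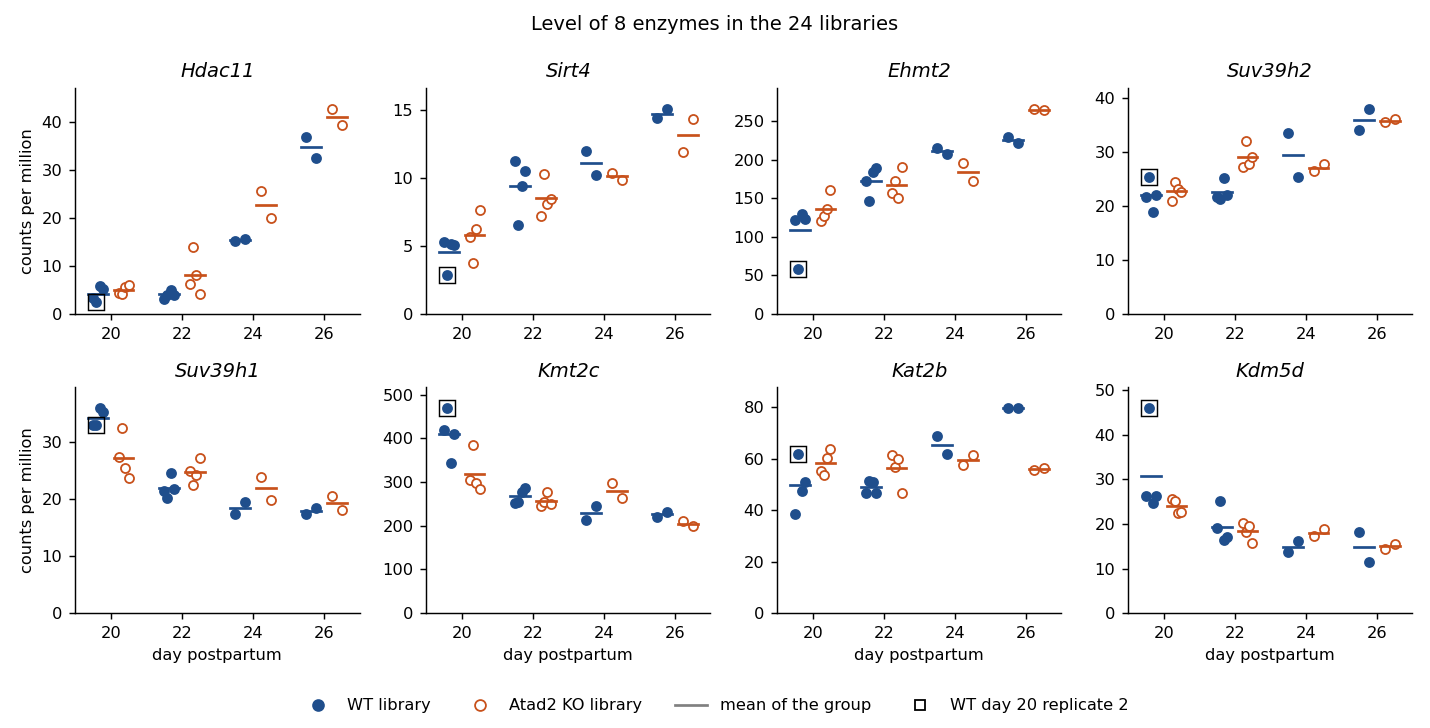
Level of 8 enzymes in each library (CPM, vertical axes from 0) by day postpartum. Filled points are WT, open points KO, lines the group means, and a square marks WT day 20 replicate 2. *Hdac11*, *Sirt4*, *Ehmt2* and *Suv39h2* are highest on day 26, *Suv39h1*, *Kmt2c* and *Kdm5d* are highest on day 20 in WT, and *Kat2b* is high on day 26 in WT alone.

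Most sex-linked enzymes fell. Of the 5 on the X chromosome, *Suv39h1*, *Kdm6a*, *Kdm5c* and *Hdac6* fell in both genotypes, and *Hdac8* was called in neither (-0.41 ± 0.36 in WT and -0.81 ± 0.38 in KO with 1.503 to 4.844 CPM on WT day 20). The 4.844 is replicate 2, where the other WT day 20 libraries had 1.503 to 2.66 CPM of *Hdac8* and WT day 26 had 2.49 and 1.51. The median of the 5 X-linked enzymes was -0.65 on the log2 scale in WT, against -0.40 for 725 X-linked genes tested, of which 35.3% fell, and -0.17 for the 59 autosomal enzymes. In KO the median was -0.62, against -0.58 for the X-linked genes, of which 47.6% fell.

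Autosomal partners of these genes varied. The Y-linked H3K4 demethylase *Kdm5d* was at 26.2, 46.02, 24.6 and 26.2 CPM on WT day 20, where replicate 2 is the high value, and 18.2 and 11.4 on WT day 26. It changed by -1.05 ± 0.24 in WT (adjusted p = 0.00126; -0.84 without that replicate) and -0.68 ± 0.23 in KO (adjusted p = 0.0196). The X-linked H3K27 demethylase *Kdm6a* (UTX) changed by -0.90 ± 0.20 in WT (adjusted p = 0.0013) and -0.76 ± 0.20 in KO, its autosomal paralog *Kdm6b* (JMJD3) by -0.24 ± 0.24 and -0.37 ± 0.24, not called. WT day 20 replicate 2 had 43.6 CPM of *Kdm6b*, the other WT day 20 libraries 78.1 to 98.96 and WT day 26 74.3 and 57.5. *Kdm5c* fell by 0.36 in WT and 0.62 in KO, where autosomal *Kdm5a* also fell (by 0.60 in WT and by 0.56 in KO) and *Kdm5b* was not called. These paralogs are similar in sequence, and read pairs that aligned to more than 1 place had been discarded.

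The second comparison asked whether loss of *Atad2* changed the enzymes. *Atad2* itself was at 76.4 to 171 CPM on WT day 20 and 30.8 to 37.1 CPM on KO day 20, and at 112.5 to 138 and 52.5 to 53.0 CPM on day 26, with no overlap on any day, the reads in KO including the exons that remain. No enzyme was called on any day. On day 20, 0 of 65 were called, where 3.34% of all genes were, and on day 22, 0 of 65, where 2.51% were. On days 24 and 26, with 2 libraries in each group, 0 of 65 were called, where 0.0874% and 0.0466% of all genes were. Over the mean of the 4 days 0 of 65 were called, against 7.08% of all genes. No enzyme had a KO effect that differed between days (0 of 65, where 0.00582% of all genes did). An unadjusted p below 0.05 was found for 5, 3, 1 and 9 enzymes on days 20, 22, 24 and 26 and for 8 over the mean of the days. Of all 17170 genes it was found for 2141, 2505, 898 and 1979 on those days and for 3982 over the mean. DESeq2 called 2 on day 20 (*Kmt2c* and *Suv39h1*), 2 on day 22 (*Hdac11* and *Suv39h2*), 0 on day 24, 0 on day 26 and 2 over the mean (*Hdac11* and *Kat8*), where of 21430 genes it called 892, 737, 40, 159 and 1784.

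For most of the enzymes the KO effect averaged over the 4 days was bounded. Over the mean of the days the 95% interval of 60 of the 65 lay within 0.5 of 0 on the log2 scale, and the exceptions were *Hdac7*, *Hdac8*, *Hdac9*, *Hdac11* and *Sirt5*. The median absolute difference over the mean was 0.07 for the enzymes and 0.12 for all genes. Differences of opposite sign on different days cancel in this mean, so the bound does not hold for single days. On day 26 the log2 estimates of the enzymes ran from -0.74 to 0.58. The genotypes also differed in germ cell stage. The stage score was -3.16 to -2.0 in WT and -2.40 to 0.39 in KO on day 20, and -0.42 to -0.02 against 0.11 to 1.38 on day 22. On day 24 it was 1.31 to 1.59 in WT and 1.447 to 1.502 in KO, and on day 26 1.906 to 1.911 in WT and 1.67 to 1.68 in KO. KO libraries thus had the higher score on day 22 and the lower score on day 26, both with no overlap, and the groups overlapped on days 20 and 24. Single marker lists need not follow the score. On day 20 the sum of round spermatid genes was higher in KO with no overlap (207 to 251 CPM against 106 to 179 in WT). Elongating spermatid genes were higher in KO with no overlap on day 24 (758 to 1533 CPM against 424 to 479.9 in WT) and on day 26 (3060 to 3099 against 1859 to 2963). On day 26 pachytene genes were also higher in KO (4452 to 4593 against 3536 to 3892 CPM), round spermatid genes overlapped, and Sertoli (218 to 236 against 259 to 269 CPM) and peritubular genes (269.7 to 312 against 363 to 436 CPM) were lower. Leydig cell genes were higher in KO on day 24 (889 to 1055 against 501 to 702 CPM). On day 26 their sum was lower (872 to 999 against 1095 to 1805 CPM), but the mean of their centred log2 levels overlapped (0.42 to 0.69 in KO, 0.64 to 1.47 in WT). The sum of spermatogonial genes was higher in KO on day 26 (696 to 786 against 593 to 632 CPM). The mean of their centred log2 levels was lower there (-0.221 to -0.219 in KO, -0.127 to -0.081 in WT), so their direction depends on the measure. The part of stage and cell make-up in the differences between genotypes cannot be told apart from the loss of *Atad2*.

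**Figure D5:**
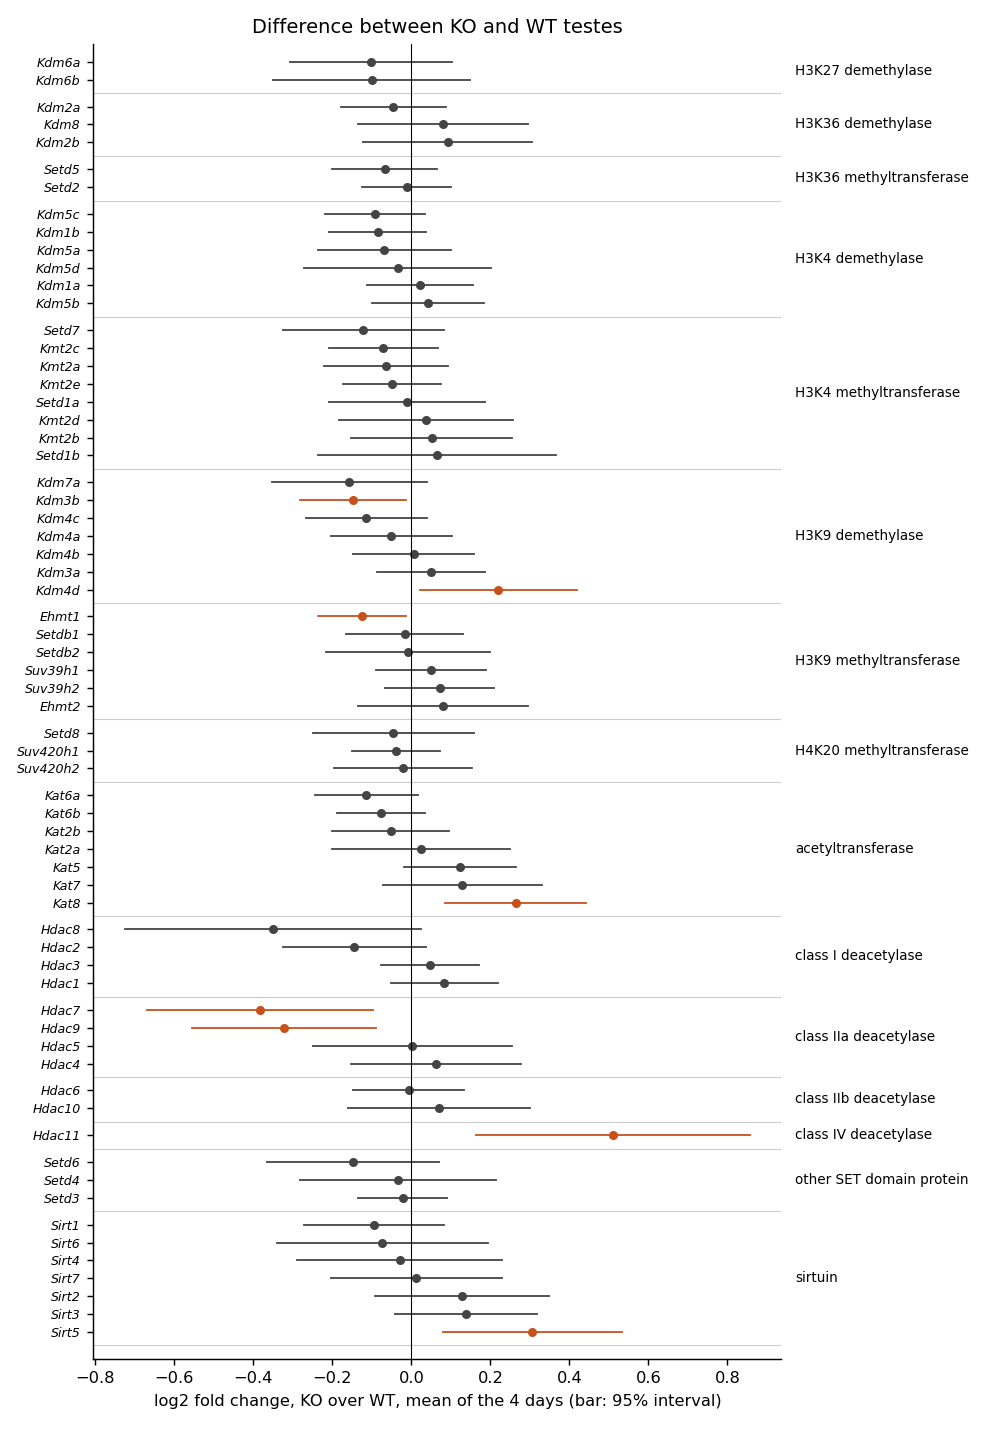
Difference between KO and WT over the mean of the 4 days (log2 fold change, horizontal axis) with its 95% interval for each of the 65 enzymes, by activity. Coloured intervals have an unadjusted p below 0.05, which 8 enzymes do, and none passed after adjustment over all genes.

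The enzymes nearest to a call are named here after their values were seen. *Hdac11* was the largest difference, at 3.10, 4.01, 5.07 and 4.04 CPM in WT and 6.17, 14.01, 8.11 and 4.22 CPM in KO on day 22, where the KO values lie above all the WT values but for replicate 4, which lies within them. The difference on day 22 was log2 1.0 ± 0.29 (adjusted p = 0.0659), with an interval of 0.40 to 1.60, and over the mean of the days 0.51 ± 0.17 (adjusted p = 0.0643). Without KO day 22 replicate 1 or replicate 4, *Hdac11* passed on day 22, while without replicate 2 it was at 0.60 (adjusted p = 0.371). *Suv39h2* was at 21.5, 21.2, 25.2 and 21.9 CPM in WT and 27.1, 31.98, 27.7 and 29.03 CPM in KO on day 22, with no overlap, a difference of 0.37 ± 0.11 (adjusted p = 0.0773).

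On day 20 *Kmt2c* and *Suv39h1* had the lowest p-values. *Kmt2c* was at 419, 469.9, 343 and 409 CPM in WT and 304, 385, 298 and 284 in KO, overlapping through 1 library of each, with a difference of -0.37 ± 0.11 (adjusted p = 0.0695). *Suv39h1* was at 33.01, 32.96, 36.01 and 35.3 CPM in WT and 27.4, 32.6, 25.4 and 23.6 in KO, with no overlap, and a difference of -0.33 ± 0.11 (adjusted p = 0.12). Both passed without KO day 20 replicate 2, and *Kmt2c* alone without WT day 20 replicate 3. *Ehmt1* (-0.20), *Kdm1b* (-0.21) and *Sirt3* (0.33) had adjusted p-values of 0.301 to 0.343.

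Days 24 and 26 had the fewest libraries. On day 26 *Kat2b* was at 79.7 and 79.8 CPM in WT and 55.5 and 56.5 in KO (log2 -0.51 ± 0.17, adjusted p = 0.249). *Kdm4d* was at 104 and 117 and 161 and 169 CPM (0.58 ± 0.22, adjusted p = 0.311), and *Kat8* at 57.99 and 57.04 and 89.7 and 74.6 CPM (0.51 ± 0.20, adjusted p = 0.315). None of these 3 overlaps between genotypes, which with 2 libraries in each group happens often by chance. The share of all genes without overlap was not counted. *Kat5* (0.44), *Hdac1* (0.35), *Hdac7* (-0.74), *Setd6* (-0.54), *Kdm1b* (-0.29) and *Kdm5c* (-0.30) had adjusted p-values of 0.288 to 0.426. When day 26 was fitted alone, so that its 4 libraries set their own spread, 10 of the 65 and 2104 of 16465 genes were called. Those 10 were *Hdac1*, *Kat5*, *Kat7*, *Kat8*, *Kdm4d*, *Setd1b* and *Sirt2*, higher in KO, and *Hdac7*, *Kat2b* and *Kdm7a*, lower. On day 24 the single unadjusted result was *Sirt5* (0.61 ± 0.26, adjusted p = 0.82), at 2.11 and 2.38 CPM in WT and 3.73 and 3.14 in KO.

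Over the mean of the days, *Kat8* (0.26 ± 0.086, adjusted p = 0.0652) and *Sirt5* (0.31 ± 0.11, adjusted p = 0.0888) were higher in KO, and *Hdac9* (-0.32 ± 0.11, adjusted p = 0.0804) and *Hdac7* (-0.38 ± 0.14, adjusted p = 0.0918) lower, none past the threshold. Without WT day 20 replicate 2, *Hdac7* (-0.42, adjusted p = 0.0389) and *Kat8* (0.28, adjusted p = 0.0433) passed. *Hdac7* is known from endothelium, and the summed level of 5 endothelial genes was 41.6 to 47.6 CPM in KO against 61.7 to 65.1 CPM in WT on day 26, and 29.6 to 55.6 against 65.2 to 69.7 CPM on day 22. The genotypes overlapped on day 20 (53.2 to 77.8 CPM in KO, 69.7 to 111 in WT) and on day 24 (54.5 to 63.97 in KO, 63.85 to 82.2 in WT). Its part in the *Hdac7* values was not tested. *Ehmt1* (-0.12), *Kdm3b* (-0.15) and *Kdm4d* (0.22) had adjusted p-values of 0.159 to 0.167.

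Other enzymes of these pathways, with symbols the rule does not take, were read beside them from a list of 91 genes, of which 84 were in the tables and tested. In WT 10 of the 84 rose and 26 fell from day 20 to day 26, and in KO 19 rose and 26 fell. Over all genes tested 24.4% rose and 18.1% fell in WT, and 27.2% rose and 24.9% fell in KO. *Ezh2*, the H3K27 methyltransferase of Polycomb, rose by 0.34 ± 0.12 in WT and 0.47 ± 0.12 in KO. *Prdm9*, which marks recombination hotspots with H3K4 trimethylation, changed by -1.06 ± 0.23 in WT (adjusted p = 8.07e-04) and -0.50 ± 0.22 in KO (adjusted p = 0.0683). The coactivator acetyltransferases *Ep300* and *Crebbp* were called in neither genotype (WT -0.25 and -0.30), *Hat1*, which acetylates new H4, fell in KO by 0.67, and *Uty*, the Y-linked relative of *Kdm6a*, fell in KO by 0.87. Between genotypes 2 of the 84 were called, both lower in KO, *Taf1* on day 20 (-0.44 ± 0.12, adjusted p = 0.0463) and *Tbl1x*, a subunit of the HDAC3 corepressor complex, over the mean of the days (-0.24 ± 0.067, adjusted p = 0.0371). Over all genes 3.34% were called on day 20 and 7.08% over the mean. Neither call was stable to leaving out single libraries: *Taf1* was called in 4 of 24 such fits, at -0.27 (adjusted p = 0.0674) without WT day 20 replicate 2, and *Tbl1x* in 8 of 24, with log2 values of -0.26 to -0.21 and adjusted p-values up to 0.131. *Taf1* also fell with age in WT, by 0.98.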

How the data were processed

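Total RNA of testis was depleted of ribosomal RNA and sequenced as stranded read pairs. According to the submitters' processing notes and methods, the authors aligned reads to mm10 with STAR 2.7.11b and counted pairs in exons by strand with HTSeq, which gave the deposited raw counts per gene symbol, 1 table for each of 24 libraries, neither normalised nor pooled. The version of the gene models is not given in the sources used here. Pairs with several alignments were 4.74% to 13.7%, and those outside exons 45.1% to 58.5%; these 5 tallies stayed out of library sizes and tests. The study's text gives 3 replicates for day 20 and the labels 4, and all were used.

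All 8 groups were fitted together with edgeR 4.0.16 (filterByExpr with a minimum count of 10, TMM scaling, quasi-likelihood tests) in R 4.3.3, with Benjamini-Hochberg adjustment over 17170 genes. A member counts as changed at an adjusted p below 0.05. CPM are TMM-scaled. Members, activities and lists were chosen with earlier results of these data known. Values are given for the 8 largest rises and 8 largest falls with age in WT, for the sex-linked members with their paralogs, and for the 2 highest and 2 lowest levels of each activity; members nearest to a call between genotypes were added after their values were seen. Lengths and positions are from GENCODE M21, where 62 members matched by symbol and 3 by an older one. Replicates of a group differed by more than counting noise, so none was counted as a duplicate. On simulated counts of the day 20 comparison, 65.3% of genes changed by log2 1 and 91.7% of those changed by log2 2 were recovered among 16907 genes. Alternatives were DESeq2 1.42.0, its size factors, no filter, a replicate block, a stage covariate, single days and each library left out.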

Additional observations from a re-analysis of the deposited data

Results flagged for a closer look

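Within groups of 4 libraries, a value was singled out where its gap to the nearest of the others, as a share of the group's range, was over Dixon's 95% critical value. Chance gives this in about 1 in 20 groups. Of 260 groups over the 65 enzymes 19 were singled out (7.31%), 11 of them through WT day 20 replicate 2 and 5 through KO day 22 replicate 4. Among the 27 enzymes chosen for full values there were 6, and all were WT day 20 replicate 2. It was the lowest of its group for *Ehmt2* (0.901 of the range), *Sirt4* (0.907), *Kdm5c* (0.891), *Kdm2b* (0.837) and *Kdm3b* (0.831), and the highest for *Kdm5d* (0.926). For *Ehmt2* the library had 58.9 CPM where the other 3 had 122 to 129, and for *Kdm5d* 46.0 CPM where they had 24.6 to 26.2. This library also had the highest share of mitochondrial ribosomal RNA, and its part in these values was not tested beyond leaving it out.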

How the results depend on the processing

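Between genotypes, the count of 0 enzymes became 2 with DESeq2 on day 20, on day 22 and over the mean of the days, and 10 with day 26 fitted alone; leaving out 1 library gave 0 to 2 on day 20, 0 to 1 on day 22 and 0 to 3 over the mean (3 without WT day 20 replicate 1, namely *Hdac9*, *Kat8* and *Kdm4d*; 2 without WT day 20 replicate 2 or KO day 22 replicate 1, 3 or 4; 1 without WT day 20 replicate 3 or WT day 22 replicate 1). With age, leaving out 1 library gave 19 to 37 in WT, 22 to 39 in KO and 21 to 36 for any difference among the days in WT, the last without WT day 20 replicate 2. The shares of all genes called in these fits, and with the replicate block below, are not given here. The stage covariate gave 0, 11 and 1, and leaving out the 9 libraries with epididymis markers gave 8, 6 and 5, with 15 libraries left. The cause was not tested. *Kat2b* in KO turned from -0.059 to 0.028 with DESeq2's size factors and with DESeq2, uncalled throughout. Those size factors moved the median of all genes by at most 0.087. Replicate numbers were not taken to pair the samples, because not every pair was positive: libraries with the same number correlated at 0.0705 to 0.41 on day 20, 0.39 on day 24 and 0.416 on day 26, but at -0.459 to -0.0254 on day 22. With a replicate block, 29 enzymes changed with age in WT, 32 in KO and 25 among the days, and 0 between genotypes; 27 of the 32 in WT were shared, and *Hdac1*, *Kat6b*, *Kdm3b*, *Kdm4d* (0.49, adjusted p = 0.0575) and *Kdm5c* lost their calls.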

Other observations

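Genes of the surrounding complexes were sorted by kind after the comparisons above. Of 27 other methyltransferases, 5 rose and 12 fell from day 20 to day 26 in WT, and 9 rose and 11 fell in KO. Over all genes tested 24.4% rose and 18.1% fell in WT, and 27.2% rose and 24.9% fell in KO. *Dot1l*, the only H3K79 methyltransferase, rose by 0.96 ± 0.22 in WT (adjusted p = 0.00144) and 1.11 ± 0.22 in KO, and *Prdm8* by 0.91 ± 0.31 and 1.24 ± 0.29. *Ezh1*, the paralog of *Ezh2*, fell in WT, at -0.46 ± 0.11 (adjusted p = 0.0027), and was not called in KO, at -0.27 ± 0.11 (adjusted p = 0.0502). Of 16 methyltransferase subunits 3 rose (*Ash2l*, *Dpy30* and *Paxip1*) and 3 fell (*Rbbp5*, *Wdr82* and *Hcfc1*) in WT. In KO 4 rose (these and *Phf1*) and 4 fell (*Suz12*, *Aebp2*, *Wdr82* and *Hcfc1*), and *Rbbp5* was not called (-0.27 ± 0.14, adjusted p = 0.113). Of 23 deacetylase complex subunits 18 were not called in WT. *Sin3a*, *Sin3b*, *Mta3* and *Tbl1x* fell and *Rcor3* rose. In KO *Sap30*, *Rcor3* and *Gps2* rose and *Rcor2*, *Rbbp7* and *Tbl1x* fell. Of 9 other demethylases 4 fell in WT (*Phf8*, *Hr*, *Mina* and *Jmjd4*) and 0 rose. In KO 5 fell (the same 4 and *Uty*) and 2 rose (*Phf2* and *Jmjd6*).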
